A study of Mus musculus with 8 samples.

Results

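The Egr and Nab genes encode a family of activity-induced transcription factors and the corepressors that hold them in check. Open chromatin was described around 6 of them, Egr1, Egr2, Egr3, Egr4, Nab1 and Nab2, as the ATAC-seq peaks that lay within 50 kb of their gene bodies in GRCm38 RefSeq. The 6 genes are 6 of 21887 protein-coding genes, and 38 of the 62023 regions of the series lay near them. In ATAC-seq the Tn5 transposase cuts accessible DNA and adds sequencing adapters, and the deposited peaks are those of nucleosome-free fragments. A region is a stretch in which peaks of 1 or more lists overlap by at least 1 bp. The rule uses gene names and positions and no measured value.

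The cells were primary cortical neurons cultured from mouse embryos at E16.5. There were 4 conditions with 2 libraries each and 1 deposited peak list each. cKO KCl and cKO basal neurons had the genotype Brg1-cko (BAF53bCre Brg1F/F), in which Cre from the neuronal gene BAF53b deletes floxed Brg1, the catalytic subunit of the chromatin remodeller BAF. WT KCl and WT basal neurons were labelled Brg1 WT, and the labels do not state whether they carried Cre. KCl groups received 50 mM KCl for 1 h on day 6 in vitro, which depolarises neurons and lets calcium in. For depolarisation, TTX at 1 µM and APV at 100 µM had been added on day 5 to silence spontaneous activity. Whether the basal cultures were silenced as well is not stated, and neither is how many embryos or cultures gave the libraries. The remaining Brg1 in cKO neurons is not measured by peak lists.

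The cKO KCl list held 25690 peaks, cKO basal 20484, WT KCl 20229 and WT basal 34061. Background pileup, used here as a measure of depth, was 8.36, 9.47, 8.23 and 9.30 fragments in the same order, a range of 1.15 times. The list with the highest background, cKO basal, was not the longest. The part of depth in list length was not tested. With 1 list per condition there is no replicate error, and no test compares conditions. Intervals below are exact 95% Poisson or binomial intervals and cover counting error only. Of 6 neuronal markers, Map2, Tubb3 and Syt1 had a gene-end region in all 4 lists and Snap25 in 3, while Rbfox3 and Dcx had none. Of 4 excitatory markers Tbr1 had one in both cKO lists, and of 3 inhibitory ones Gad1 in cKO KCl. Of 3 astrocyte markers 0, 0, 0 and 2 had one in cKO KCl, cKO basal, WT KCl and WT basal, and of 3 oligodendrocyte markers 1, 2, 1 and 2. Of 3 endothelial markers 1 had one in each list, and of the microglial markers Aif1, Cx3cr1 and Csf1r 0 did. Open chromatin is not expression, and the part of other cells in the values below was not tested.

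EGR proteins bind a GC-rich site through zinc fingers, and their genes are among the first that neurons transcribe after calcium entry. Serum response factor at CArG boxes and CREB at cyclic AMP response elements (CRE) are the best known routes of this induction. Nab1 and Nab2 proteins bind EGR factors and repress their targets, and Nab2 is itself an EGR target, which closes a negative feedback loop. Egr1 (Zif268) is the classical activity marker of this family in cortex. Egr2 (Krox20) is known from hindbrain segmentation and myelination, Egr3 from muscle spindles and synaptic plasticity, and Egr4 (NGFI-C) as an activity-induced neuronal member.

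The promoters are shown first because the results turn on which lists had a peak on them. RefSeq promoter windows of GRCm38.p6, 250 bases before to 50 after a transcript start, were found for 4 of the 6 genes, Egr2, Egr4, Nab1 and Nab2. Of 5 Egr2 starts, the one at 67537869 is given. Capitals mark the CArG box and CRE cores in Egr2, CRE cores in Egr4, EGR sites in Nab1 and the GC box in Nab2.
Egr2, chr10:67537619-67537918, plus strand: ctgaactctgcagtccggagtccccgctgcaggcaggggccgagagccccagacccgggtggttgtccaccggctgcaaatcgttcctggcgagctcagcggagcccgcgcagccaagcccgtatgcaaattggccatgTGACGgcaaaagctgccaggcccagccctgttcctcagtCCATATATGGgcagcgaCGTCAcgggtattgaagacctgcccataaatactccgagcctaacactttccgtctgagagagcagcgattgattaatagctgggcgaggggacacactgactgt
Egr4, chr6:85513540-85513839, minus strand: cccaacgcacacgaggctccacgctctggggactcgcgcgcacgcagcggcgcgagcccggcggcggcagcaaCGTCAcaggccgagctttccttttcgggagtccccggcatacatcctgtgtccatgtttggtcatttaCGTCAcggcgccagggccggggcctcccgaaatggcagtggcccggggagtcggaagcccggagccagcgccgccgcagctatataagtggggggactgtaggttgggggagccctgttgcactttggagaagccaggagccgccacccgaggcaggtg
Nab1, chr1:52500399-52500698, minus strand: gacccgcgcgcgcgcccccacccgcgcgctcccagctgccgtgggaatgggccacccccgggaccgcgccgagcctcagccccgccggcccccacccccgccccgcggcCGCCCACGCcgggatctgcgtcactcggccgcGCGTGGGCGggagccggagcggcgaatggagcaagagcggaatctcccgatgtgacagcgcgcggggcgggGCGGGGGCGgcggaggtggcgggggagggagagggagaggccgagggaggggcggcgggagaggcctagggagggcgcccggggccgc
Nab2, chr10:127666654-127666953, minus strand: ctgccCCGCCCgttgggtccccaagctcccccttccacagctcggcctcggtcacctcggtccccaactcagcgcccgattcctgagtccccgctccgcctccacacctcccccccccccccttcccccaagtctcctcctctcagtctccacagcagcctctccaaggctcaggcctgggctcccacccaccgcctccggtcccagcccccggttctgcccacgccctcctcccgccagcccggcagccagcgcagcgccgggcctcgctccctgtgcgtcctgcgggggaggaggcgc

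Both strands of each window were searched for 8 motifs: the EGR site (GCGNGGGCG), the CArG box (CC, then A or T at 6 positions, then GG), the CRE (TGACGTCA), the CRE core (TGACG), the AP-1 site (TGANTCA), the ETS site (CCGGAA), the GC box (GGGCGG) and the TATA box (TATAAA). The CRE contains the CRE core on both strands, and EGR sites and GC boxes can overlap. Egr2 was alone among the 4 genes with a window in holding a CArG box, which 1.63% of 32851 promoter windows held. The Egr1 and Egr3 promoters were not read. Upstream of the start at 67537869 it lay 72 to 63 bases away and read CCATATATGG. A second one, CCTTTTTTGG, lay 72 to 63 bases before the start at 67537566, whose window also held 3 ETS sites. CRE cores were found in Egr2 (2 in the window shown), Egr4 (2) and Nab1 (1), against 20.8% of all windows with any. Nab1 held 3 EGR sites, at 141 to 133, 109 to 101 and 38 to 30 bases before its start, against 5.55% of all windows with any. With GCGTGGGCG alone 2 of them matched, against 0.612% of windows. Nab2 held 1 GC box, as 35.7% of windows did, and no other match. No window of the 4 genes matched the strings searched for the full CRE, the AP-1 site or the TATA box, which 1.79%, 7.81% and 13.6% of windows held. The TATA box was searched as TATAAA exactly, so near forms such as the tatataag in the Egr4 window were not counted.

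These promoters differed in which lists had a peak on them, as the map of promoter peaks shows. Nab1 had a peak on its window in all 4 lists. Nab2 had one in cKO basal and WT basal, Egr4 in cKO KCl, and Egr2 in WT basal. Among the 27025 genes with a window, 31% had a peak on it in cKO KCl, 26% in cKO basal, 27.1% in WT KCl and 31% in WT basal.

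**Figure D1:**
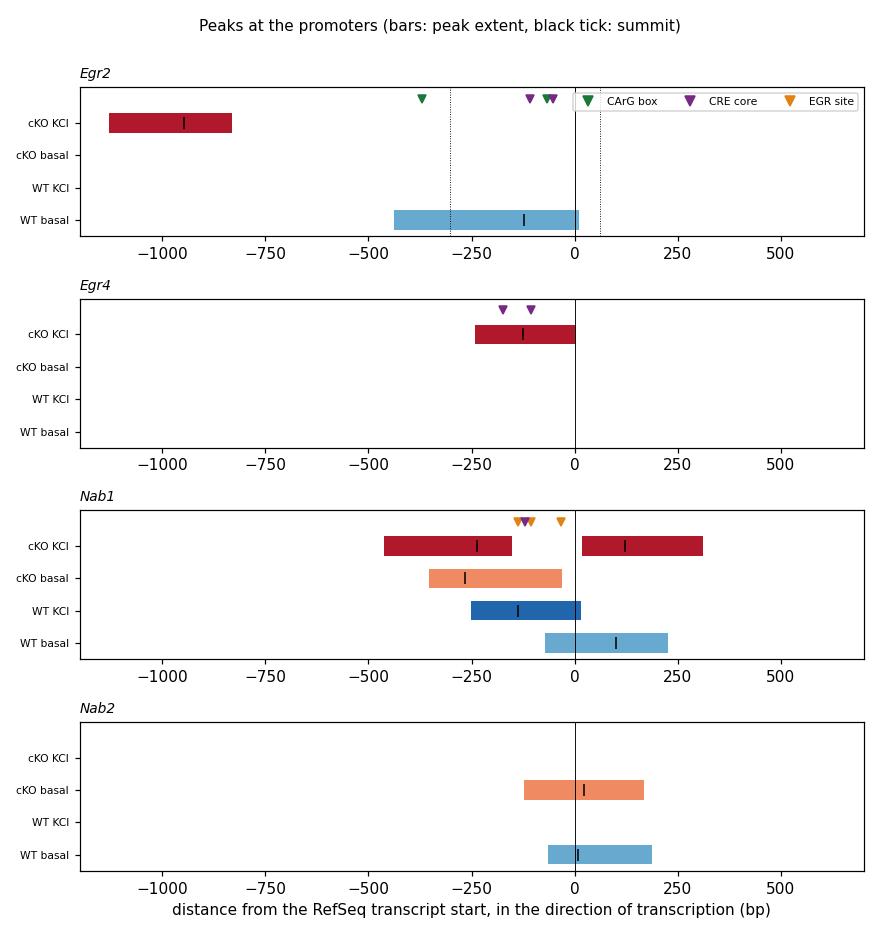
Peaks at the promoters of Egr2, Egr4, Nab1 and Nab2, by distance from the RefSeq transcript start in bp (x axis) and list (rows: cKO KCl, cKO basal, WT KCl, WT basal). Bars are peak extents, black ticks summits, vertical lines transcript starts (solid for the one given, dotted for others) and triangles motif matches. Nab1 has a peak in each list, Nab2 in the 2 basal lists, Egr4 in cKO KCl, and Egr2 over its starts in WT basal.

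At Egr1, on chromosome 18 (34861207 to 34864956), the peaks nearest the gene differed in place between lists. Just below its lower-coordinate end, a region from 34859770 to 34860749 had a peak in all 4 lists, with a fold over local background, as the authors' caller gave it, of 3.40 in cKO KCl, 3.24 in cKO basal, 3.25 in WT KCl and 3.21 in WT basal. These folds lay between the 65.6th and the 73.1st percentile of their lists. The summits, however, lay 613 bp below the gene in cKO KCl, 599 in cKO basal and 588 in WT KCl, but 1313 in WT basal. The WT basal peak (34859805 to 34860073) did not overlap those of cKO basal and WT KCl, and the 977-bp cKO KCl peak joined them into 1 region. Summit pileup was 57 fragments in cKO KCl, 58 in cKO basal, 46 in WT KCl and 57 in WT basal, and all intervals overlapped.

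Over the Egr1 gene end itself (34860905 to 34861409), peaks were present in cKO KCl with fold 2.83, in cKO basal with 2.69 and in WT KCl with 2.56. WT basal had none there. Pileup was 48 fragments in cKO KCl (95% interval 35.4 to 63.6), 47 in cKO basal (34.5 to 62.5) and 37 in WT KCl (26.1 to 51.0). In WT basal, peaks at a comparable background had been called from 32 fragments upward. Brought to the depth of WT basal, the lower bound was 39.4 for cKO KCl and 33.9 for cKO basal, above that value, and 29.4 for WT KCl, below it. Taken peak by peak rather than by merged region, WT basal was therefore the one list with no peak within 1 kb of Egr1.

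The 4 other Egr1 regions lay 20.4 to 43.6 kb away. One at the end of Reep2, which encodes an endoplasmic reticulum shaping protein, had fold 3.27 in cKO KCl, 2.64 in cKO basal and 2.36 in WT basal. An intergenic one (34887119 to 34887898) had fold 3.89 in cKO KCl, 2.50 in cKO basal and 2.75 in WT basal. Both thus lacked a peak in WT KCl alone. The remaining 2 were near or in Etf1, a translation termination factor gene, with 1 in cKO KCl and 1 in cKO basal.

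Egr2, on chromosome 10 (67534469 to 67542188), had 10 regions, the most of the 6 genes, and 8 of them were in 1 list. The WT basal peak over its starts (67537432 to 67537880) covered both CArG boxes and both CRE cores of the window shown, with its summit 122 bp before the start at 67537869. Its fold was 2.53 and its pileup 41 fragments (29.4 to 55.6), at the 23rd percentile of the list. The cKO KCl peak inside the gene lay farther upstream, with its summit 947 bp before that start, fold 2.49 and 35 fragments. Neither overlapped a peak of another list. At a comparable background, the lowest called pileups were 29 in cKO KCl, 31 in cKO basal and 29 in WT KCl. The lower bound of the WT basal pileup, brought to their depth, was 26.4, 29.96 and 26.0 in the same order, below each. The absence of a call over the starts was thus not a detectable difference at this depth. Within 1 kb of the annotated gene ends Egr2 had no region, since the starts with a peak lie farther inside the annotated body.

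Beyond the higher-coordinate end of Egr2, peaks clustered at Ado, which encodes a thiol dioxygenase. The strongest Egr2 region in each of the 4 lists was 67548840 to 67549209, 6.65 kb from Egr2 and at the end of Ado. Its fold was 4.47 in cKO KCl, 3.69 in cKO basal, 4.46 in WT KCl and 4.42 in WT basal. Pileups were 45, 42, 44 and 54 fragments in this order, with overlapping intervals. The region beside it (67547867 to 67548623) had fold 3.02 in cKO KCl, 2.51 in WT KCl and 3.38 in WT basal. There the WT KCl peak met the cKO KCl peak in 6 bp and did not meet that of WT basal. Another Ado-end region was in cKO KCl, with fold 3.26. The remaining 5 regions, intergenic and 16.2 to 42.2 kb from Egr2, were in 1 list each, with folds of 2.48 to 3.03.

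Egr3, on chromosome 14 (70077317 to 70082613), had 8 regions, none in more than 2 lists. Its gene-end region (70078279 to 70078576) began 962 bp inside the lower-coordinate end and was in cKO KCl alone, with fold 2.59 and 37 fragments (26.1 to 51.0). This pileup lies close to the calling limit: at a comparable background the lowest called pileup was 31 in cKO basal, 29 in WT KCl and 30 in WT basal. Just outside the gene, 2.62 kb below it, another cKO KCl peak had fold 2.71. A neighbouring region at 2.00 kb (70074968 to 70075319) was in both WT lists, with fold 2.42 in WT KCl and 2.06 in WT basal. The other 5 were in 1 list each, with folds of 2.25 to 3.30. They lay in Pebp4, at or in Bin3, an adaptor protein gene of the BAR family, and in 1 case between genes.

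Egr4, on chromosome 6 (85511121 to 85513589), had a peak over its transcript start in cKO KCl and in no other list. The peak (85513586 to 85513831) had fold 3.09, the 50th percentile of its list, and 43 fragments (31.1 to 57.9). Both CRE cores of the window lay inside it, and its summit was 126 bp before the start. At a comparable background, the lowest called pileups were 30 in cKO basal, 27 in WT KCl and 29 in WT basal. The lower bound of the cKO KCl pileup, brought to the depth of those lists, was 35.3, 30.6 and 34.6 in the same order, above each. The region of Egr4 in all 4 lists was 7.89 kb away at the end of Fbxo41, a neuronal F-box protein gene, with fold 2.87 in cKO KCl, 2.51 in cKO basal, 2.93 in WT KCl and 2.71 in WT basal. A second Fbxo41-end region was in WT KCl (2.59), and an intergenic one in WT basal (2.51).

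Nab1, on chromosome 1 (52455849 to 52500712), had 3 regions, 1 of them at its promoter and in all 4 lists. This region (52500138 to 52500911) had its highest fold at 3.42 in cKO KCl, 2.58 in cKO basal, 2.82 in WT KCl and 3.11 in WT basal. Pileups were 31, 26, 25 and 31 fragments, with overlapping intervals. Peak positions varied, however: cKO KCl had a pair of peaks with summits 236 bp before and 122 bp after the start, cKO basal 1 peak with its summit 267 bp before, WT KCl 138 bp before, and WT basal 100 bp after. The 2 upstream EGR sites lay inside the cKO basal and WT KCl peaks, and in the gap between the cKO KCl pair. With an overlap of 50% of the shorter peak, the Nab1 peaks no longer formed 1 region. The other 2 regions, 1 inside the gene (2.48) and 1 at 24.3 kb (2.86), were in cKO basal.

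Nab2, on chromosome 10 (127660918 to 127666703), had a promoter peak in both basal lists and in neither KCl list. At 127666516 to 127666826, fold was 3.56 in cKO basal and 2.33 in WT basal. Pileup was 57 fragments in cKO basal (43.2 to 73.9) and 42 in WT basal (30.3 to 56.8), which overlap. The summits were 14 bp apart, 23 bp after the start in cKO basal and 9 bp after it in WT basal. In the KCl lists the lowest called pileup at a comparable background was 30 fragments each. The lower bound in cKO basal, brought to their depth, was 38.1 for cKO KCl and 37.5 for WT KCl, above it. The lower bound in WT basal was 27.2 for cKO KCl and 26.8 for WT KCl, below it, so within WT neurons the absence of a call was not a detectable difference at this depth. Nab2 overlaps its neighbour Stat6, a cytokine-activated transcription factor gene, by 70 bp at the other end, away from this peak.

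Elsewhere near Nab2, 2 regions were in all 4 lists. The region at the end of Nemp1, a nuclear envelope protein gene, lay 10.1 kb away (127676776 to 127677397), with fold 3.44 in cKO KCl, 3.85 in cKO basal, 4.52 in WT KCl and 3.90 in WT basal. The one at the end of Lrp1, an endocytic receptor gene, lay 38.9 kb away, with fold 3.85 in cKO KCl, 2.53 in cKO basal, 2.87 in WT KCl and 2.80 in WT basal. The Lrp1 pileup of 53 fragments in cKO KCl (39.7 to 69.3) overlapped the 36 in cKO basal (25.2 to 49.8), 35 in WT KCl and 43 in WT basal. A region inside Lrp1 was in cKO KCl (2.95) and WT basal (2.27), and the other 3, at Lrp1, at Stat6 and in Myo1a, were in 1 list each.

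**Figure D2:**
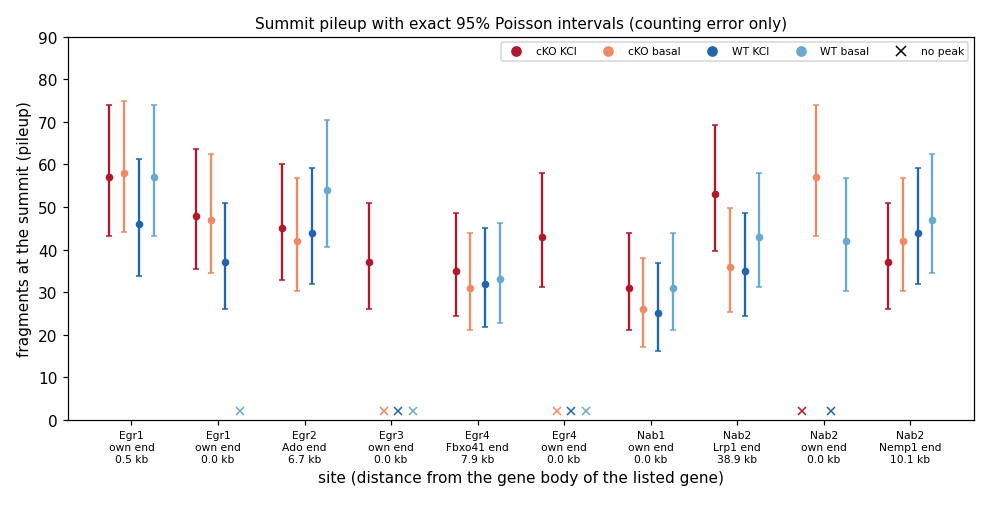
Fragments at the summit (y axis) at each region found in all 4 lists or at a listed gene's own end (x axis), by list, with exact 95% Poisson intervals; crosses mark lists without a peak. At every region shared by several lists the intervals overlap, as at the Nab2 end with 57 fragments in cKO basal and 42 in WT basal.

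Over the 13 regions with a peak in 2 or more lists, 51 pairs of lists could be set side by side. The Poisson intervals of the pileup overlapped in all 51, with and without scaling for depth. Overlap of intervals is not a test of the difference, and a region enters here only where both lists called a peak, which leaves out low pileups. The widest gap, as a ratio of depth-scaled pileups, was at the Lrp1 end, with 53 fragments in cKO KCl against 36 in cKO basal. Of 85 cases in which a list had no peak at a region, the lower bound of the list with the highest depth-scaled pileup reached the lowest called pileup in 21. At the genes' own ends it did so in 6 of 9 cases, those of Egr1, Egr4 and Nab2. Taking the highest list favours reaching the limit, and no share over all regions is set beside these counts. From WT basal the bounds at Nab2 stayed below it (27.2 and 26.8 against 30). At Egr1 the bound from WT KCl did too (29.4 against 32), while that from cKO basal reached it (33.9). An unlisted site does not report its own background or width, which both enter a call, so these limits are approximate.

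**Figure D3:**
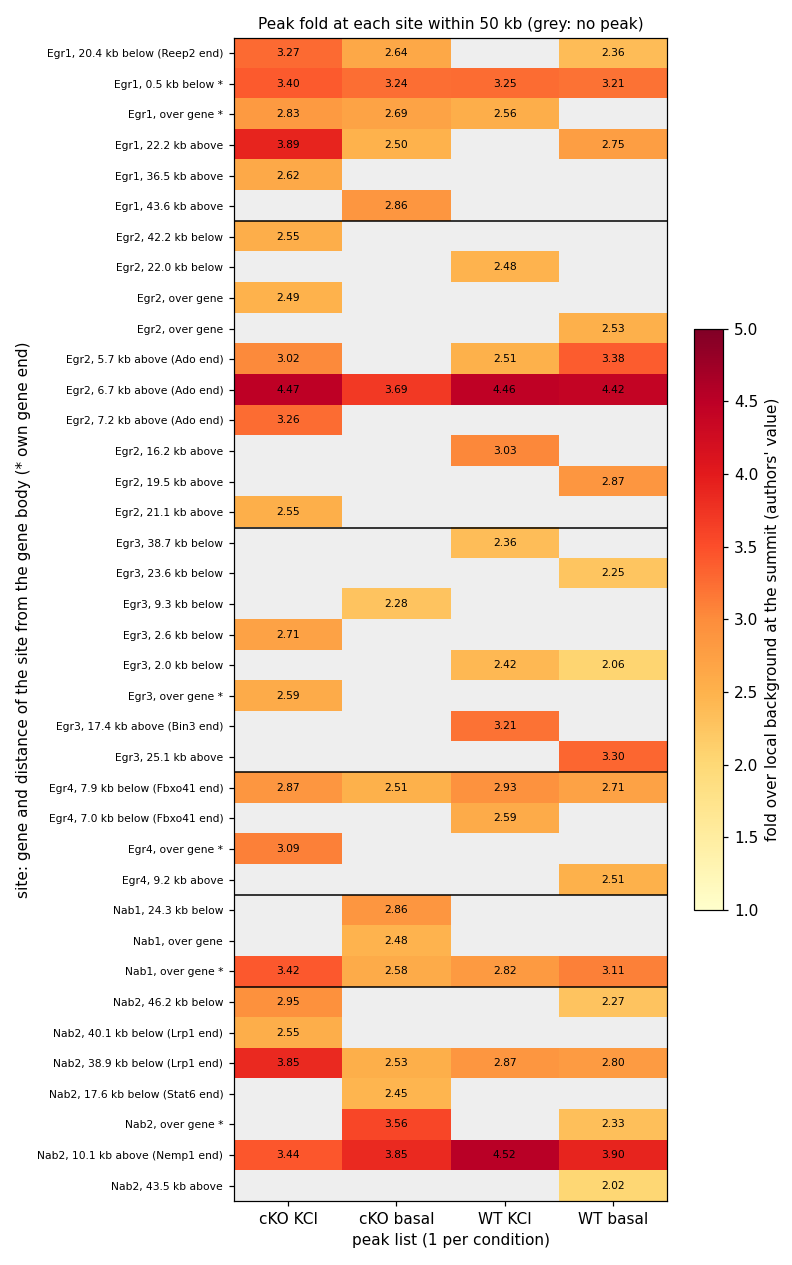
The authors' fold over local background (colour and printed value) for each of the 38 regions (rows, with the distance from the gene body in kb, below or above it in coordinates) in cKO KCl, cKO basal, WT KCl and WT basal (columns); grey marks no peak. The rows filled in all 4 lists are 6, and the highest value is 4.52 at the Nemp1 end near Nab2 in WT KCl.

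Of the 38 regions 17 (44.7%, 95% interval 28.6 to 61.7) lay at the end of a protein-coding gene, against 22.8% of all regions of the series. The 38 were taken for lying within 50 kb of protein-coding genes and the regions of the series were not. These shares thus have unlike bases and do not show an enrichment at the listed genes. By number of lists, 25 (65.8%, 95% interval 48.6 to 80.4) had a peak in 1 list and 6 (15.8%, 6.02 to 31.3) in all 4, against 71.4% and 11.6% of all regions. The 6 regions in all 4 lists lay at gene ends. Of them 2 were at listed genes (Egr1, Nab1) and 4 at their neighbours Ado, Fbxo41, Lrp1 and Nemp1. At Egr1, however, the WT basal peak itself lay 1134 bp from the gene, outside the 1 kb limit. With an overlap of 50% of the shorter peak, 5 regions were in all 4 lists. Of the 17 gene-end regions 35.3% were in all 4 lists, against 38.5% of gene-end regions in the series. Of the 21 away from gene ends, 18 (85.7%) were in 1 list and 0 in all 4, against 82.5% and 3.66% in the series. By the nearest protein-coding gene, 15 of the 38 belonged to a listed gene and 23 to a neighbour, including 6 to Ado.

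Most peaks near these genes were of ordinary strength. Near the 6 genes the median fold was 2.95 in cKO KCl, 2.64 in cKO basal, 2.84 in WT KCl and 2.73 in WT basal, against list medians of 3.08, 2.89, 3.03 and 2.82. Among the 10% of highest fold in their lists were 0 peaks of cKO KCl, 0 of cKO basal, 2 of WT KCl and 1 of WT basal, at the Ado end in both WT lists and the Nemp1 end in WT KCl. The local background at the listed genes' own ends had a median of 1.63 times the floor of its list over 16 peaks, and of 1.24 times at the other 52. Over whole lists, which are not limited to gene ends, this median was 1.06 to 1.08. The Nab1 peaks among the 16 lay at the floor, at 0.9995 to 1.0006 times. Gene-end peaks of all genes were not measured for this. A higher local background lowers the fold for the same pileup: at Egr1, 57 fragments gave a fold of 3.21 in WT basal, while 47 gave 3.90 at the Nemp1 end.

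**Figure D4:**
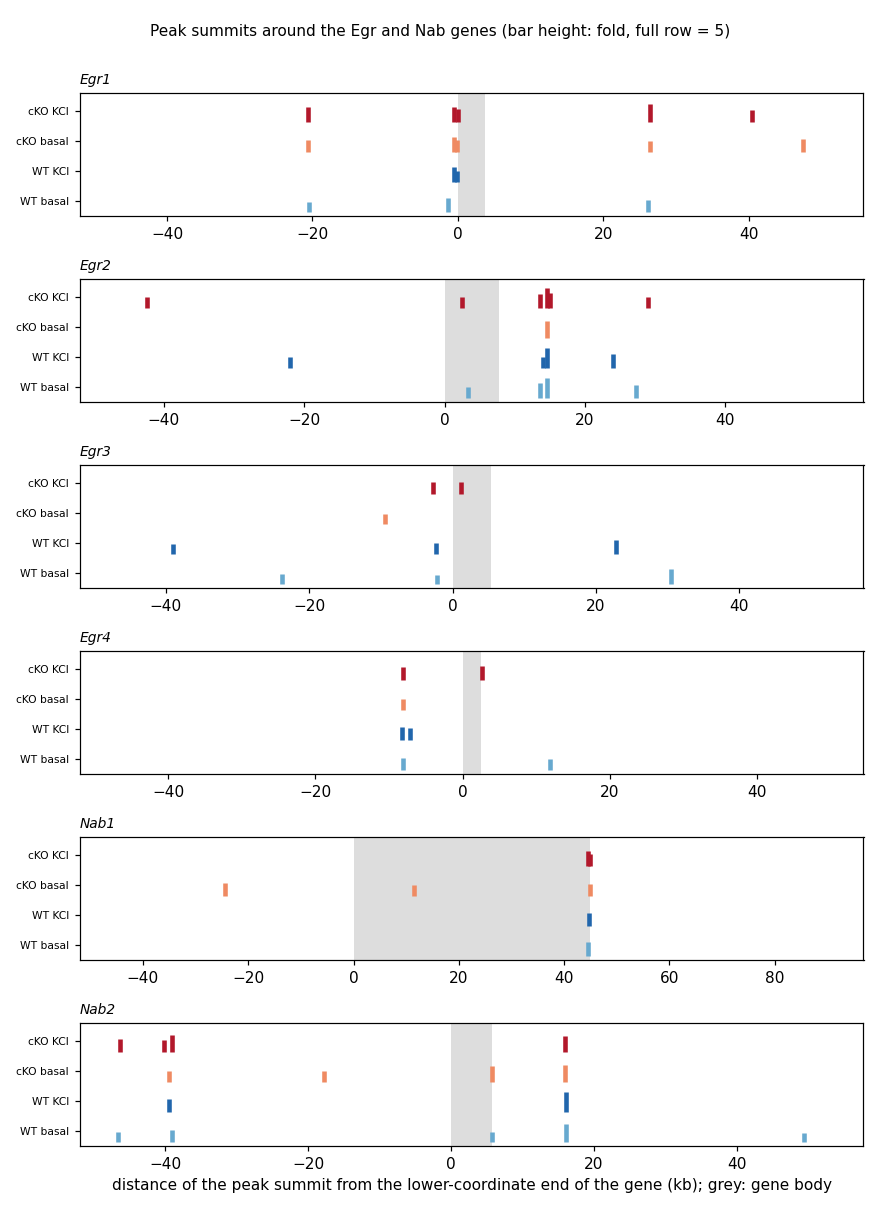
Peak summits around each gene by distance from its lower-coordinate end in kb (x axis) in cKO KCl, cKO basal, WT KCl and WT basal (rows from top); bar height is the fold and grey the gene body. Egr2 has 1 summit in cKO basal and 6 in cKO KCl, and Nab1 has summits at its higher-coordinate end in each list.

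The genotype comparison after KCl asked which sites were open with and without Brg1 in depolarised neurons. The 6 genes had 20 regions in cKO KCl and 14 in WT KCl, of which 8 were shared. At equal list lengths the counts were 17 in cKO KCl and 14 in WT KCl. Of the 26 in either list, 12 were in cKO KCl only (46.2%) and 6 in WT KCl only (23.1%), close to the 43.7% and 28.1% of all regions. More regions in cKO KCl were found at Egr1 (5 and 2), Egr2 (6 and 4) and Nab2 (4 and 2), fewer at Egr3 (2 and 3), and equal numbers at Egr4 (2 each) and Nab1 (1 each). Among all genes 42% had more in cKO KCl and 20.2% fewer. A gene-end region was present in cKO KCl at Egr1, Egr3, Egr4 and Nab1 and in WT KCl at Egr1 and Nab1, against 45.4% and 40.1% of all genes.

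Without KCl the 6 genes had 15 regions in cKO basal and 18 in WT basal, with 9 shared as merged regions. In the one just below Egr1, the cKO basal and WT basal peaks themselves did not overlap. Of 24 in either list, 6 (25.0%) were in cKO basal only and 9 (37.5%) in WT basal only, against 22.2% and 53.7% of all regions. Egr1 (5 and 3) and Nab1 (3 and 1) had more in cKO basal, as 11.4% of all genes did. Egr2 (1 and 4), Egr3 (1 and 3), Egr4 (1 and 2) and Nab2 (4 and 5) had fewer, as did 57.3%. Cut to equal lengths by p-value, the lists turned this order round, with 14 regions in cKO basal and 11 in WT basal. Gene-end regions were at Egr1, Nab1 and Nab2 in both lists, though by its own peak Egr1 had one in cKO basal only, and 39.2% of all genes had one in cKO basal and 46.8% in WT basal. Over the Egr2 starts, outside the gene-end limit, a peak was in WT basal and not in cKO basal. Its depth-scaled lower bound was 29.96, below the cKO basal calling limit of 31.

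KCl in cKO neurons went with 20 regions in cKO KCl against 15 in cKO basal, 9 of them shared. Of 26 in either list, 11 (42.3%) were in cKO KCl only and 6 (23.1%) in cKO basal only, against 43.2% and 28.5% of all regions. At equal list lengths the counts were 17 in cKO KCl against 14 in cKO basal. Egr2 had the largest difference of the 6 genes, with 6 regions in cKO KCl and 1 in cKO basal. A difference of 5 or more was found in 1.59% of all genes. That share holds for a gene named beforehand, while Egr2 was picked as the extreme of 6 genes in 4 comparisons. Most of its cKO KCl regions lay nearest to Ado. Depth-scaled lower bounds stayed below the cKO basal calling limit inside Egr2 (27.6 against 30) and at the intergenic regions 42.21 and 21.15 kb away. They reached it at the Ado-end regions without a cKO basal peak (28.2, from WT basal, against 22, and 25.7 against 24). As to levels, 88.7% of all genes had fewer than the 6 of Egr2 in cKO KCl, and 88.5% had fewer than the 5 of Egr1 in cKO basal. Egr3 and Egr4 had 2 in cKO KCl and 1 in cKO basal, Egr1 had 5 in each list and Nab2 4, while Nab1 had 1 in cKO KCl against 3 in cKO basal. Of all genes 42.2% had more in cKO KCl and 20.1% fewer. At the gene ends, Egr3 and Egr4 had a region in cKO KCl only and Nab2 in cKO basal only.

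KCl in WT neurons went with 14 regions in WT KCl against 18 in WT basal, with 8 shared as merged regions. In the region just below Egr1, and in 1 at the Ado end near Egr2, the WT KCl and WT basal peaks themselves did not overlap. Of 24 in either list, 6 (25.0%) were in WT KCl only and 10 (41.7%) in WT basal only, against 22.1% and 54.1% of all regions. Egr1 (2 and 3) and Nab2 (2 and 5) had fewer in WT KCl, as 57.2% of all genes did, and none of the 6 had more, as 11.3% did. Egr2 (4), Egr3 (3), Egr4 (2) and Nab1 (1) had equal numbers, of which 2 were shared at Egr2 and 1 each at Egr3, Egr4 and Nab1. At equal list lengths the order was again reversed, with 14 in WT KCl and 11 in WT basal. The Nab2 promoter had a peak in WT basal only, and the peak over the Egr1 gene end was in WT KCl only. Over the Egr2 starts, outside the gene-end limit, a peak was in WT basal and not in WT KCl. Lower bounds within WT neurons were 26.8 for Nab2, 29.4 for Egr1 and 26.0 for Egr2. None reached the lowest called pileup of the list without the peak, 30, 32 and 29 fragments.

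**Figure D5:**
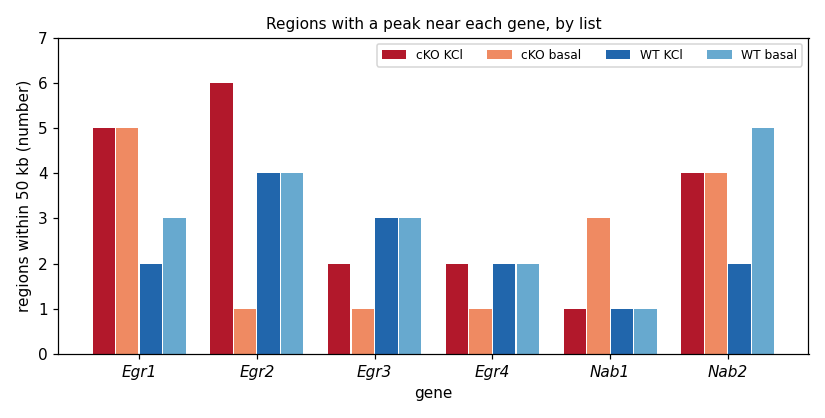
Number of regions within 50 kb (y axis) of each gene (x axis) in cKO KCl, cKO basal, WT KCl and WT basal (bars from left). Egr2 ranges most, with 6 regions in cKO KCl and 1 in cKO basal.

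The 4 comparisons share lists, so their values are not independent of each other. By number of regions in the 4 lists, the activity genes nearest to each member, among 26 set side by side, were Maff and Nr4a2 for Egr1 (summed absolute difference 4 regions), Btg2 for Egr2 (3), Sik1 for Egr3 (2), Fosl2, Homer1 and Sik1 for Egr4 (2 each), Dusp6 for Nab1 (1) and Nr4a3 for Nab2 (3). This likeness rests on small whole numbers in 4 lists.

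Other genes of the pathway numbered 26. Against WT KCl, cKO KCl had more regions at 14 and fewer at 7, beside 42% and 20.2% of all genes. The largest positive differences were at the ETS factor gene Elk3 (8 and 2) and the postsynaptic scaffold gene Dlg4 (9 and 4). Among the 6 cofactor and related genes, Chd3 and Chd4 included, cKO KCl had more at 2 and fewer at 3. Against WT basal, cKO basal had more at 3 and fewer at 19, beside 11.4% and 57.3% of all genes. The largest negative differences were at the chromatin remodeller gene Chd3 (4 and 12), the Srf coactivator gene Mrtfb (2 and 8) and Sp1 (3 and 9). In cKO neurons KCl went with more at 18 and fewer at 4, beside 42.2% and 20.1% of all genes. Those with more included Elk3 (8 and 3) and Chd4, whose product binds Nab2 (8 and 4). In WT neurons KCl went with more at 2 and fewer at 18, beside 11.3% and 57.2% of all genes. Those with fewer were led by Chd3 (4 and 12) and Srf (2 and 8), and included the EGR target Arc (1 and 5). The genes given with their counts were picked for the largest differences among the 26. Neither calling limits nor equal list lengths were applied to them. The median net change of the 26 was 1, -2, 1 and -1 region in this order of comparisons, against 0, -1, 0 and -1 over all genes. Gene-end regions were found at 22 of the 26 in cKO KCl (84.6%), 19 in cKO basal (73.1%), 16 in WT KCl (61.5%) and 23 in WT basal (88.5%), against 45.4%, 39.2%, 40.1% and 46.8% of all genes. Srf had none in any list, while Creb1 and the EGR targets Cdk5r1, Syn1 and Syn2 were among those with one in all 4.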

How the data were processed

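Per the submitters' processing notes, Bowtie2 and MACS2 were used on GRCm38, also named mm10. Not given in the sources used here were their versions and settings, any removal of duplicates and the pooling of libraries. Per the labels, 60 M reads of 75 bp came from each library of 50000 cells. The authors deposited 1 narrowPeak list per condition, tied to it by genotype and treatment in the list's name. The deposited values per peak are a score, a ratio called fold (summit over local background), the −log10 p-value, the −log10 q-value and the summit offset. The lowest deposited −log10 q was 1.31 to 1.51.

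Of each list, 5 mitochondrial peaks were left out. No columns of unmatched samples were present (0). Pileup and local background at the summit were solved from the deposited fold, with a pseudocount of 1, and the Poisson p-value. A whole-number pileup matched 100% of peaks within 0.001 in −log10 p. The solver and the merging were tested on simulated data. "Comparable background" means within 5% of the background at the site in the lists with a peak, scaled by the list floors. Scaling for depth used the same floors.

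A gene-end region lies at most 1 kb from the lower or higher annotated coordinate of a protein-coding gene. The design named transcript starts where available; since 4 of 6 genes had an entry, ends were kept for all and starts given for those. Every site is accounted for; sites named are those in 2 or more lists, at a listed gene's end or of highest fold. The members and lists were chosen with earlier results of these data known. Alternatives are in the closing section. Python 3.11.15, pandas 2.3.3 and scipy 1.17.1 were used.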

Additional observations from a re-analysis of the deposited data

Results flagged for a closer look

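The number of regions near the 6 genes moved in opposite directions with KCl in the 2 genotypes. KCl minus basal was 5 regions in cKO neurons and -4 in WT neurons. The list lengths moved the same way, with 25690 peaks in cKO KCl and 20484 in cKO basal, against 20229 in WT KCl and 34061 in WT basal. The difference was not tested, since each condition has 1 list, and at equal list lengths both differences were 3.

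One region inside Lrp1 near Nab2 (chromosome 10, 127614241 to 127614685) had a peak in cKO KCl (fold 2.95) and WT basal (fold 2.27) and in neither other list, so presence went with KCl in cKO neurons and with its absence in WT neurons. This was not tested either. Pileup was 41 fragments in cKO KCl and 39 in WT basal, and the WT basal fold lay at the 4.27th percentile of its list. The depth-scaled lower bound of cKO KCl was 28.96 fragments for WT KCl, below its calling limit of 29. For cKO basal it was 33.3, above the limit of 31.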

How the results depend on the processing

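Results of 4 lists rest on a threshold call at 23 to 58 fragments per summit, and depth limits what an absent peak shows. No paired analysis was possible because the 2 libraries of a condition were deposited as 1 list, and leaving out a library could not be run for the same reason.

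With an overlap of 50% of the shorter peak, distances from the summit, or merging of peaks up to 200 bp apart, counts stayed within 1.5 times and net differences kept their sign.

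Equal list lengths gave 11 regions in WT basal, and net differences of 3 for cKO KCl minus WT KCl, 3 for cKO KCl minus cKO basal, 3 for cKO basal minus WT basal and 3 for WT KCl minus WT basal, the last 2 being reversed. These follow from the removal of weak peaks from the longer lists.

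With −log10 q of at least 3, the net differences were 8 for cKO KCl minus cKO basal and -2 for WT KCl minus WT basal.

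A window of 10 kb gave 11 regions in cKO KCl, 8 in cKO basal, 8 in WT KCl, 9 in WT basal and 4 in all 4 lists, with net differences of 3 (cKO KCl minus WT KCl), -1 (cKO basal minus WT basal), 3 (cKO KCl minus cKO basal) and -1 (WT KCl minus WT basal). A window of 100 kb gave 37, 27, 24, 33 and 12 regions, with net differences of 13, -6, 10 and -9 in the same order. Keeping sites nearest to a listed gene gave 8, 6, 5, 6 and 2 regions, with 3, 0, 2 and -1. Fewer or more sites in the window account for these shifts.

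Gene-end counts stayed within 1.5 times under each alternative, including 1 chosen after seeing the data, the own peak of a list at the end (4 genes in cKO KCl, 3 in cKO basal, 2 in WT KCl and 2 in WT basal).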
